A study of Mus musculus with 8 samples.

Results

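Subunits of respiratory complexes II, III, IV and V were followed in mouse embryonic fibroblasts (MEFs) under normoxia and hypoxia, with and without the oxygen sensor Hif-p4h-1. The members were all genes whose platform symbol is Sdha, Sdhb, Sdhc or Sdhd or starts with Uqcr, Cox4, Cox5, Cox6, Cox7, Cox8 or Atp5. This rule gave 46 of the 18193 genes named on the array: 4 subunits of complex II, 8 of complex III, 17 of complex IV and 17 of complex V. Of these, 45 passed the filter on low values and were tested. Cox7b2, a restricted isoform of complex IV, was not tested. Its log2 level lay between 2.66 and 3.15 in the 8 arrays. A gene that several probe sets read was represented by the one with the highest mean level.

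All cells came from C57BL6/J embryos at stage E14.5. The 4 groups were cells wild type for Hif-p4h-1 in normoxia, cells knocked out for Hif-p4h-1 (-/-) in normoxia, and cells of each genotype in hypoxia, with 2 arrays per group, 1 in each of 2 sets. Hif-p4h-1 is the product of Egln2 and hydroxylates prolines of hypoxia-inducible factor (HIF) alpha subunits. The sources used here give neither the oxygen level nor the length of the exposure. Nor do they say whether the arrays came from separate embryos or cultures, so p-values measure only the spread between these samples, which may be technical.

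The respiratory chain passes electrons from NADH and succinate to oxygen. Complex II, succinate dehydrogenase, also belongs to the tricarboxylic acid cycle and hands electrons to ubiquinone. Complex III passes them to cytochrome c, complex IV (cytochrome c oxidase) uses them to reduce oxygen to water, and complex V (ATP synthase) makes ATP from the proton gradient. Several complex IV subunits exist as a ubiquitous form and a form restricted to certain tissues, and a HIF-driven exchange of COX4-1 for COX4-2 is known from other cells in hypoxia. All members of complexes II to V measured here are nuclear genes, and no mitochondrially encoded subunit of the list of 6 (mt-Co1, mt-Co2, mt-Co3, mt-Cytb, mt-Atp6 and mt-Atp8) was named on the array.

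The array values are log2 expression values from RMA, a method that corrects background, equalizes the arrays and combines the probes of a set into 1 value. Levels of different probe sets cannot be set against each other as amounts of RNA, so comparisons below are between samples for 1 probe set, and a percentile only places a signal on the range of the array. For 37 of the 46 members the mean level lay above the 90th percentile of all genes. The exceptions were Sdhc and 8 genes of complex IV, namely Cox4i2, Cox6a2, Cox6b2, Cox7a1, Cox7b2, Cox7c, Cox8b and Cox8c. Hypoxia moved the 10 HIF target genes of the list upward in both genotypes, each past the threshold. Of all genes 7.54% rose in wild type and 4.98% in knockout. The HIF target list was chosen with earlier results of these data known, so its share is no result about such genes. Normoxic Egln2 signal remained in the knockout, at 8 and 8.34, below the 8.84 and 9.07 of the wild type. In hypoxia the knockout arrays read 8.66 and 8.85 and the wild-type arrays 8.95 and 9.13, so the gap was smaller there, and 1 hypoxic knockout array lay above a normoxic wild-type one. Which part of Egln2 the probe set reads, and whether it lies in the deleted part, was not tested. The sets stood apart on the leading principal component, which carried 54.1% of the variance. All 8 fibroblast markers of the list passed the filter, with a summed log2 level between 16.05 and 16.33 in every group. The brightest markers weigh most in that sum, so it can hide changes of the others. Between genotypes, over both oxygen conditions, 2 of the 8 were called lower in knockout and 0 higher (25%, beside 0.256% of all genes called).

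In wild-type cells 10 of the 45 tested members passed the threshold, an adjusted p under 0.05 over all 13647 genes, between hypoxia and normoxia. Of these, 2 were higher in hypoxia (Cox7a1 and Uqcr11) and 8 were lower (Atp5a1, Sdha, Cox7c, Atp5g1, Atp5b, Cox6b2, Uqcrc1 and Cox5b). That is 22.2% of the members, while 16.4% of all genes passed (7.54% upward and 8.85% downward). In knockout cells 5 members passed (Atp5a1, Cox7c, Sdha and Cox7a1 with the same direction as in wild type, and Atp5k upward), or 11.1% against 10.1% of all genes (4.98% upward and 5.13% downward). Over both genotypes 17 members passed, 8 upward (Cox7a1, Uqcr11, Uqcrq, Atp5e, Atp5j, Atp5j2, Atp5k and Atp5pb) and 9 downward (the 8 that fell in wild type and Atp5g2), or 37.8% against 28.7% of all genes (13.6% upward and 15.2% downward). In wild type the members' median log2 change was -0.01, beside -0.015 over all genes; the pairs of medians were 0.045 and 0.02 for knockout, and 0.0425 and 0.0075 for the genotypes combined. By complex, 1 of 4 tested subunits passed over both genotypes in complex II (25%), 3 of 8 in complex III (37.5%), 4 of 16 in complex IV (25%) and 9 of 17 in complex V (52.9%).

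Members read at high signal were measured with a smaller error than most genes. The median standard error (SE) of a wild-type change was 0.072 on the log2 scale for members and 0.125 for all tested genes, so smaller changes could pass among the members. Without the set as a term in the fit, 0, 0 and 1 members passed in wild type, knockout and both genotypes. Leaving out 1 array gave 4 to 8 calls in wild type (4 without the hypoxic array of the first set or the normoxic array of the second) and 1 to 5 in knockout (1 without either knockout array of the second set). Over both genotypes it gave 7 to 13 calls, with 7 without the first set's normoxic wild-type, normoxic knockout or hypoxic wild-type array. The share of all genes called in these fits is not given here. Whether the members lost more calls than other genes was not tested.

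**Figure D1:**
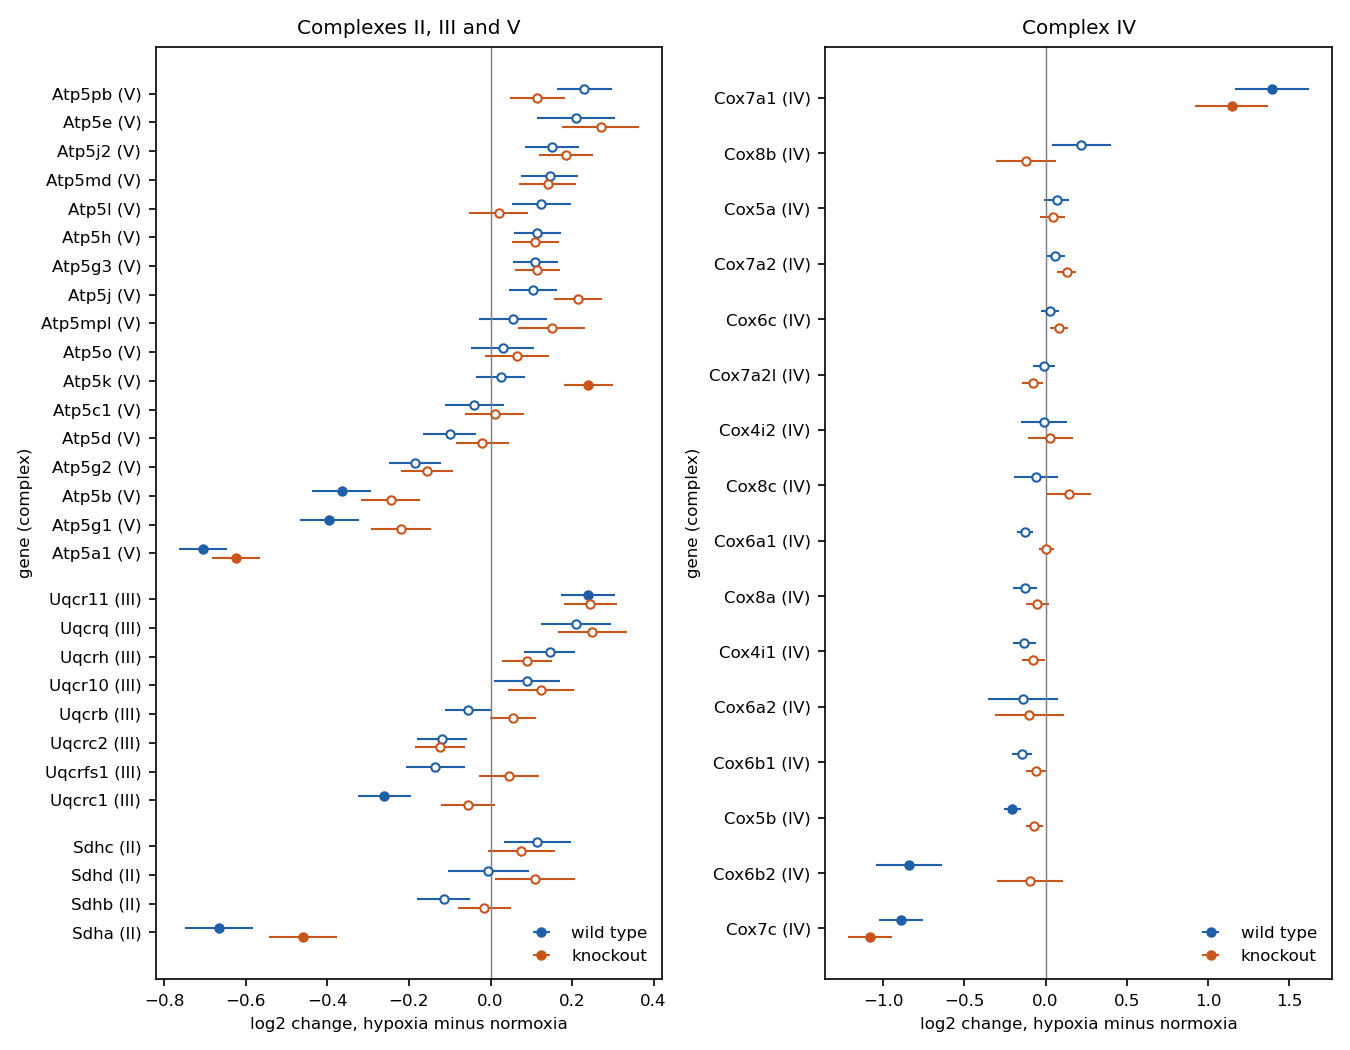
Log2 change between hypoxia and normoxia (horizontal axis) of each of the 45 tested members, in wild type (blue) and knockout (orange), with standard errors as bars; filled points passed at an adjusted p under 0.05 and open points did not. The horizontal scales of the panels differ. Sdha, Atp5a1 and Cox7c lie far to the left in both genotypes and Cox7a1 far to the right, while most others lie near 0.

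Promoters are shown for the members that passed in wild type and in knockout alike, since hypoxia moved them in opposite directions. Of these 4 genes, Sdha, Cox7c and Cox7a1 matched the RefSeq promoter table (GRCm38.p6), which held 35 of the 46 members. Each line gives the 250 bases before the annotated transcription start, read along the gene's strand. Capitals mark matches on either strand to the core of the HIF binding site, ACGTG or GCGTG, and to the site of nuclear respiratory factor 1 (NRF1), which is GCGCA, any base and GCGC. The windows are chr13:74350241-74350490 on the minus strand for Sdha, chr13:86046796-86047045 on the minus strand for Cox7c and chr7:30183921-30184170 on the plus strand for Cox7a1.
Sdha: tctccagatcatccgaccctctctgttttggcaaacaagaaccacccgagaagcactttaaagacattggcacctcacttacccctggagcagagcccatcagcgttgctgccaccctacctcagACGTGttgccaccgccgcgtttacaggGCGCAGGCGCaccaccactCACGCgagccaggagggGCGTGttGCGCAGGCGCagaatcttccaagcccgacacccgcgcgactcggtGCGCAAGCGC
Cox7c: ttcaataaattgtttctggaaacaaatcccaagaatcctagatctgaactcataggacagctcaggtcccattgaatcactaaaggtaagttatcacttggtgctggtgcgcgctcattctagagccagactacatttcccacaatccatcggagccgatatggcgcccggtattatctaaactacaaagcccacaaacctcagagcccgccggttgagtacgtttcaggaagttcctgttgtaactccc
Cox7a1: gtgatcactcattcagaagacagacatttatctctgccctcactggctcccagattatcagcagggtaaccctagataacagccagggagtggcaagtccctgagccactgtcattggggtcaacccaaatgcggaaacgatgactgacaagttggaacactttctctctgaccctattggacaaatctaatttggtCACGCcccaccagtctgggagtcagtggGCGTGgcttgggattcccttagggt
The Sdha window held 3 HIF core matches and 3 NRF1 matches, the Cox7a1 window 2 HIF core matches and no NRF1 match, and the Cox7c window none of either.

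Over the 35 members with an entry, 74.3% held a HIF core within the 250 bases, beside 59.2% of the 10935 tested genes with an entry and 41.5% of all 27025 genes in the table. NRF1 matches stood in 20.0% of the members (7 genes), 8.5% of the tested genes and 4.2% of all genes. Matches to CCGGAAG, a site of the ETS factor GABP, stood in 25.7% of the members (9 genes), 14.2% of the tested genes and 7.8% of all genes. These shares describe letters in a window, searched on both strands. The HIF core stood both in the promoter of Sdha, which fell, and in that of Cox7a1, which rose.

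Complex II was led by Sdha, the flavoprotein subunit that oxidizes succinate. Its log2 level in wild-type cells was 11.59 and 11.31 in normoxia and 10.91 and 10.66 in hypoxia. In knockout cells it was 11.48 and 11.40 in normoxia and 11.18 and 10.78 in hypoxia. All 4 hypoxic arrays lay below all 4 normoxic ones. Sdha fell by 0.665 ± 0.083 (SE, n = 2 arrays per group) in wild-type cells (adjusted p = 0.0029) and in knockout by 0.46 ± 0.083 (adjusted p = 0.0162). The knockout call was lost without either of its second-set arrays, with a change of -0.345 without the normoxic one (adjusted p = 0.13) and -0.362 without the hypoxic one (adjusted p = 0.15).

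The fall of Sdha was seen by 1 of its 2 probe sets with high signal. The further probe set, with a mean log2 level of 10.63, read 10.61 and 10.53 in normoxic wild type, 10.76 and 10.55 in hypoxic wild type, 10.72 and 10.54 in normoxic knockout, and 10.74 and 10.60 in hypoxic knockout. Its groups overlapped, and its change of 0.0625 over both genotypes did not pass (adjusted p = 0.392 over 24716 probe sets). With all probe sets of a gene averaged, the Sdha change was -0.168 in wild type and -0.17 in knockout, and neither passed. For Actb, whose control probe sets gauge RNA quality, signal of the 3′ set over the 5′ set was larger in the hypoxic than in the normoxic array in 4 of 4 pairs, by 0.10 to 0.17 on the log2 scale. That of Gapdh was larger in 4 of 4 pairs, by 0.04 to 0.33. Their part in the difference between the Sdha probe sets was not tested.

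The other subunits of complex II did not pass. Sdhb, the iron-sulphur subunit, changed by -0.115 in wild type and -0.015 in knockout. Sdhc and Sdhd, the membrane anchors that hold the ubiquinone site, had changes of 0.115 and -0.005 in wild-type cells and 0.075 and 0.11 in knockout cells. The 95% intervals of Sdhb, -0.264 to 0.034 in wild type and -0.164 to 0.134 in knockout, do not reach the fall that the used probe set of Sdha showed.

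Complex III gave small changes in both directions. The small subunit Uqcr11 read 10.90 and 11.13 in normoxic wild type, 11.20 and 11.31 in hypoxic wild type, 10.93 and 11.13 in normoxic knockout, and 11.21 and 11.34 in hypoxic knockout. Every hypoxic array lay above every normoxic one. Uqcr11 rose by 0.24 ± 0.066 in wild-type cells (adjusted p = 0.042), and the change of 0.245 in knockout did not pass (adjusted p = 0.053). That wild-type call was lost without any 1 of the 8 arrays (adjusted p between 0.0631 and 0.23), whereas the rise of 0.2425 over both genotypes (adjusted p = 0.0064) was called in all 8 such fits. Uqcrq, which helps form the ubiquinone-binding part of the complex, rose by 0.23 over both genotypes (adjusted p = 0.0224). That call was lost without the first-set arrays of any group or the second set's normoxic knockout array, with values between 0.163 and 0.23 (adjusted p between 0.0723 and 0.0913).

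Uqcrc1, a core protein of the matrix side, fell in wild type by 0.26 (adjusted p = 0.0325), with -0.055 in knockout (adjusted p = 0.66). It kept its wild-type call in 2 of the 8 fits that left out 1 array, those without a hypoxic knockout array, and the values without the others lay between -0.275 and -0.245 (adjusted p between 0.0549 and 0.142). Over both genotypes the fall of 0.1575 (adjusted p = 0.0363) was lost without any 1 array (adjusted p between 0.0602 and 0.152). The other core protein Uqcrc2 changed by -0.1225 over both genotypes and did not pass (adjusted p = 0.0681), though a further probe set of it did at -0.2575 (adjusted p = 0.00843). The Rieske iron-sulphur protein Uqcrfs1 and the small subunits Uqcrb, Uqcrh and Uqcr10 did not pass in any hypoxia comparison, with changes over both genotypes from -0.045 to 0.1175. By role, 1 of 3 core and Rieske subunits fell over both genotypes, where 15.2% of all genes fell, and 2 of 5 small subunits rose, where 13.6% of all genes rose. Cyc1, the cytochrome c1 of this complex, lies outside the symbol rule and fell by 0.46 in wild-type cells (adjusted p = 0.00828) and 0.375 in knockout (adjusted p = 0.024).

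Complex IV held the member that rose most and the member that fell most. Cox7a1, the isoform of subunit VIIa known from heart and skeletal muscle and brown fat, read 4.05 and 4.41 in normoxic wild type and 5.20 and 6.05 in hypoxic wild type. Levels were 4.29 and 4.27 in normoxic knockout and 4.98 and 5.87 in hypoxic knockout. The lowest hypoxic array stood well above the highest normoxic one. Cox7a1 rose by 1.395 ± 0.226 in wild-type cells (adjusted p = 0.00702) and 1.145 ± 0.226 in knockout (adjusted p = 0.0206). The rise was smaller in the first set, with 1.15 and 1.64 in the wild-type pairs and 0.69 and 1.60 in the knockout pairs of the first and second set. In wild type the call was lost without the second set's normoxic array (1.288, adjusted p = 0.0593). The knockout call was lost without the second set's normoxic or hypoxic knockout array (0.785, adjusted p = 0.138, and 0.898, adjusted p = 0.18). A single probe set reads this gene, with a mean at the 34.4th percentile of all genes. Its normoxic levels lay around the filter level of 4.17, with 1 array below it, so they were not clearly above background and the size of the rise is uncertain.

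Cox7c, a small ubiquitous subunit, read 6.79 and 6.44 in normoxic wild type, 5.75 and 5.70 in hypoxic wild type, 6.87 and 6.63 in normoxic knockout, and 5.85 and 5.49 in hypoxic knockout. The groups did not overlap. Cox7c fell by 0.89 ± 0.134 in wild-type cells (adjusted p = 0.00564) and in knockout by 1.08 ± 0.134 (adjusted p = 0.00441). Without either wild-type array of the first set the wild-type call was lost (-0.823 and -0.757, adjusted p = 0.0521 and 0.0559). The knockout call was lost without either normoxic knockout array or the second set's hypoxic one, with values between -1.087 and -1.007 (adjusted p between 0.0539 and 0.0628). The second probe set of the gene, at a mean of 4.43, fell too, by 0.78 in wild type and 1.055 in knockout. Its hypoxic levels, 3.77 to 4.24, lay around the filter level of 4.17. The probe set used had a mean of 6.19, at the 47.7th percentile of all genes. The other ubiquitous subunits of complex IV lay above the 90th percentile. Which part of the transcript the probe sets read was not tested, so the size of the fall of the whole transcript is uncertain.

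Cox4i2 encodes COX4-2, the subunit 4 isoform known for a HIF response in other cells. It read 5.39 and 5.34 in normoxic wild type, 5.42 and 5.29 in hypoxic wild type, 5.25 and 5.42 in normoxic knockout, and 5.41 and 5.32 in hypoxic knockout. The 8 values lay between 5.25 and 5.42, the groups overlapped, and no hypoxia call was made. The change was -0.01 in wild type (95% interval -0.33 to 0.31, adjusted p = 0.977) and 0.03 in knockout (-0.29 to 0.35, adjusted p = 0.923). Its probe set had a mean at the 39.7th percentile of all genes, and no second probe set was named. The median over all probe sets lay between 5.01 and 5.12 in the arrays, close to the Cox4i2 values. Whether this probe set reads above background was not tested. Its steady values therefore do not show that an expressed transcript was unmoved by hypoxia. Pericytes and smooth muscle are known to carry this isoform. The 9 pericyte and smooth muscle markers of the list all passed the filter, with a summed log2 level between 12.44 and 13.45. In every array Pdgfrb gave the largest signal in that sum, with 11.51 to 12.26, and Abcc9 the smallest, with 4.42 to 4.92. Whether such cells were present was not tested. Of the 9 markers 1, Notch3, fell in each genotype.

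Cox4i1, the ubiquitous isoform, read 12.83 and 12.97 in normoxic wild type, 12.78 and 12.76 in hypoxic wild type, 12.93 and 12.93 in normoxic knockout, and 12.93 and 12.78 in hypoxic knockout. Its change of -0.13 in wild type and -0.075 in knockout did not pass (adjusted p = 0.269 and 0.573). The difference Cox4i2 minus Cox4i1 within an array was higher in hypoxia by 0.1125, in 4 of 4 pairs of arrays, and did not pass an exact permutation test of 4 hypoxic against 4 normoxic arrays (two-sided p = 0.2, adjusted p = 0.333 over 10 isoform pairs). Lonp1, the mitochondrial protease linked to the loss of COX4-1 in hypoxia, was chosen here after its values were seen. It rose by 0.635 in wild-type cells (adjusted p = 0.00274) and 0.66 in knockout (adjusted p = 0.00387).

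**Figure D2:**
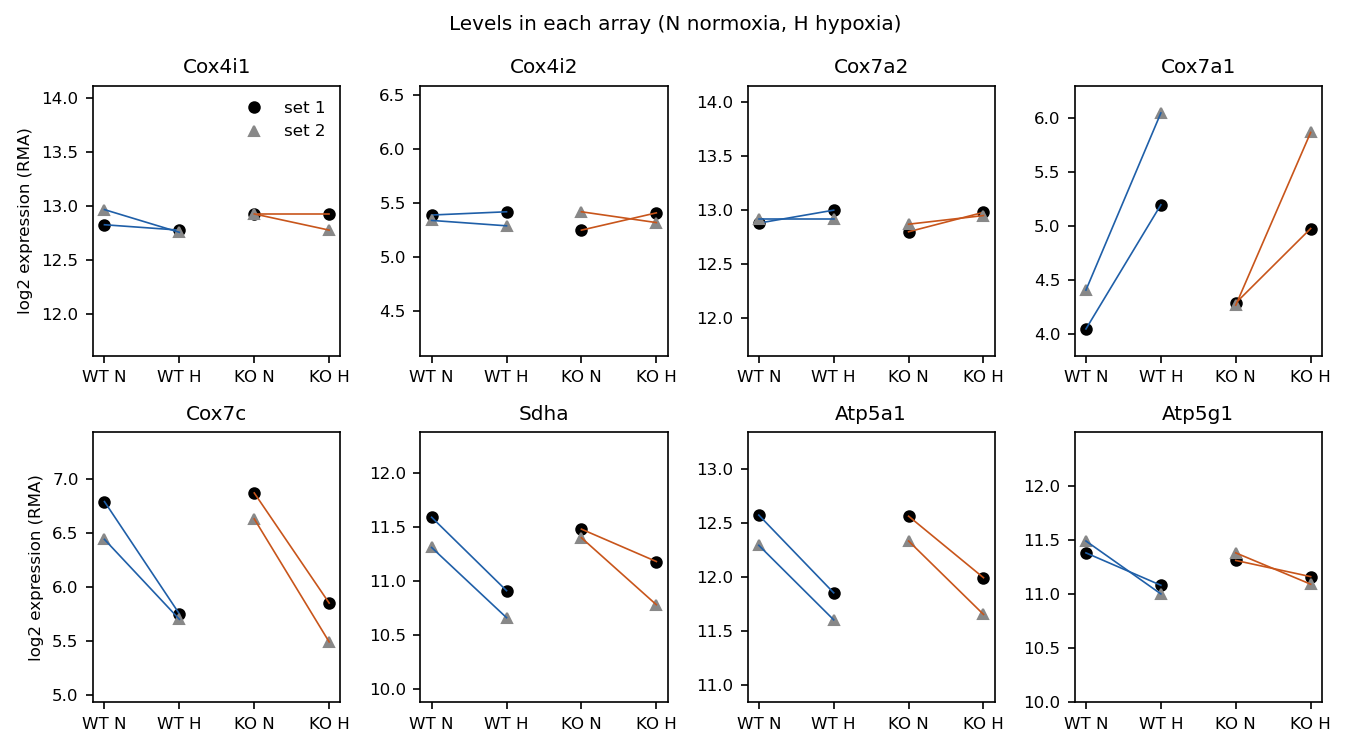
Log2 expression (RMA, vertical axis) of 8 members in each array, for wild type (WT) and knockout (KO) in normoxia (N) and hypoxia (H); circles are the first set, triangles the second, and lines join arrays of 1 set and genotype. The panels span the same log2 range but differ in level. Cox7a1 rises and Cox7c, Sdha, Atp5a1 and Atp5g1 fall along the lines, while Cox4i2 stays between 5.25 and 5.42.

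Among the other restricted isoforms of complex IV, Cox6b2, known from testis, read 6.04 and 5.68 in normoxic wild type and 5.04 and 5.00 in hypoxic wild type. Knockout arrays gave 6.31 and 5.48 in normoxia and 6.19 and 5.41 in hypoxia, so the hypoxic knockout arrays overlapped the normoxic ones. It fell in wild type by 0.84 ± 0.202 (adjusted p = 0.0271), and the change in knockout was -0.095 (adjusted p = 0.82). The genotype by oxygen interaction of 0.745 did not pass (adjusted p = 1). The wild-type call was lost without the normoxic or the hypoxic wild-type array of the first set (-0.935 and -0.532, adjusted p = 0.104 and 0.197) and without the normoxic one of the second (-0.745, adjusted p = 0.151). Over both genotypes Cox6b2 fell by 0.4675 (adjusted p = 0.0409), a call lost in 5 of the 8 fits that left out 1 array. Cox8c, also known from testis, changed by -0.06 in wild type and 0.145 in knockout and did not pass.

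Cox6a2 and Cox8b, the subunit VIa and VIII isoforms of heart and skeletal muscle, did not pass in any comparison. Cox6a2 read 6.79 and 6.30 in normoxic wild type, 6.43 and 6.38 in hypoxic wild type, 6.06 and 6.37 in normoxic knockout, and 5.89 and 6.34 in hypoxic knockout. Cox8b read 5.00 and 4.75, 5.35 and 4.84, 4.76 and 4.83, and 4.61 and 4.74 in the same groups. In both genes the first set's wild-type arrays gave the 2 highest levels. The knockout minus wild-type difference over both oxygen conditions was -0.31 for Cox6a2 (adjusted p = 0.532) and -0.25 for Cox8b (adjusted p = 0.566).

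Those 2 arrays also held the highest levels of several muscle markers. Myog, a myogenic transcription factor, read 8.04 and 7.96 there and at most 4.33 in the other 6 arrays, and Mylpf, a fast muscle myosin light chain, read 10.50 and 10.41 against at most 6.99. Myh3, Tnnt3, Actc1, Tnnt2 and Myh7 were highest there too. Acta1, the skeletal muscle actin, was not, with 9.65 and 9.21 there, 9.10 and 9.22 in the first set's knockout arrays and 10.90 to 11.54 in the second set, and neither was Ckm, muscle creatine kinase, with 5.09 and 5.33 against 5.09 to 5.41. Of the 12 muscle markers listed, 9 passed the filter, and Myod1, Myh6 and Nppa did not. The summed log2 level of the list was 11.65 to 12.21 in normoxic wild type, 9.96 to 11.78 in normoxic knockout, 11.21 to 11.94 in hypoxic wild type and 9.92 to 11.39 in hypoxic knockout, and in the second set Acta1 gave the largest signal in that sum. Without both arrays, the knockout minus wild-type difference was 0.015 for Cox6a2 and -0.01 for Cox8b. Both arrays are wild type and held the 2 highest levels of these genes. Leaving them out thus tends to move such a difference upward whatever its cause, which was not tested. Cox7a1 was not raised in those 2 arrays, and its change over both genotypes was 1.3925 without them. In bulk samples, fewer cells of a type and less RNA per cell cannot be told apart.

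With both arrays left out, which leaves 1 residual degree of freedom and 1 wild-type array per oxygen condition, no member passed in wild type or in knockout alone. The wild-type comparison then sets 1 array against 1, with the spread taken from the other groups, so the missing calls say little about stability. Over both genotypes 6 passed, 1 upward and 5 downward. They were Cox7a1, Atp5a1 (-0.6575, adjusted p = 0.0307), Cox7c (-0.91, adjusted p = 0.0338), Sdha (-0.555, adjusted p = 0.0414), Atp5g1 (-0.355, adjusted p = 0.039) and Atp5b (-0.3625, adjusted p = 0.0318). The changes of these members within the second set and within the knockout cells thus had the directions of the full data.

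**Figure D3:**
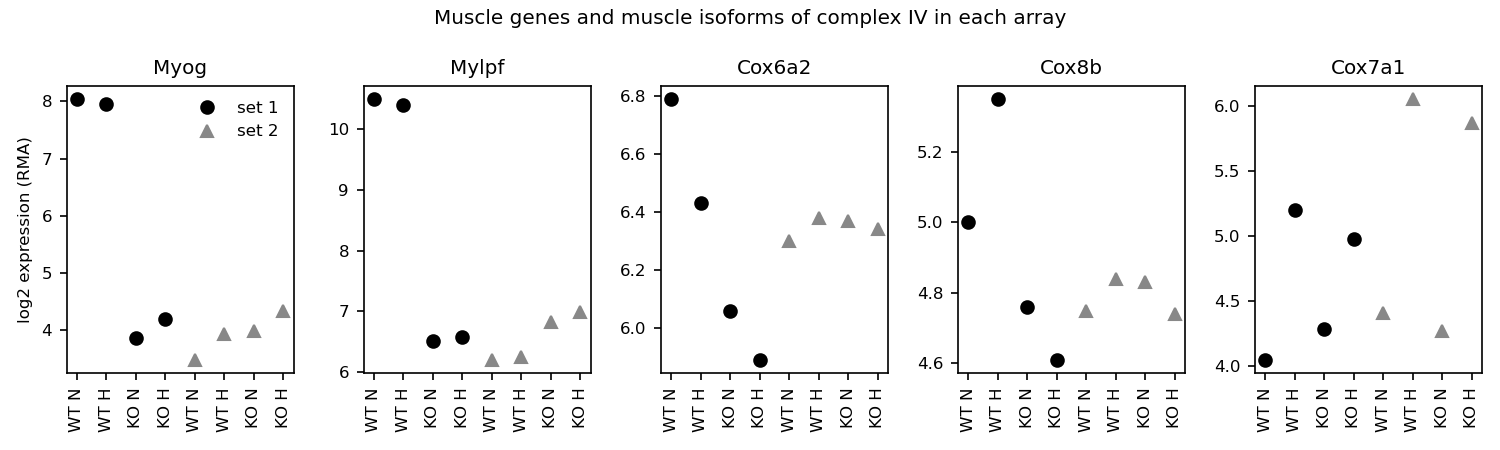
Log2 expression (RMA, vertical axis, a scale of its own in each panel) of the muscle genes Myog and Mylpf and of the complex IV isoforms Cox6a2, Cox8b and Cox7a1 in each array; WT wild type, KO knockout, N normoxia, H hypoxia, circles the first set and triangles the second. The first set's wild-type arrays are highest for Myog (8.04 and 7.96), Mylpf, Cox6a2 and Cox8b, whereas Cox7a1 separates by oxygen.

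Of the 9 ubiquitous subunits of complex IV, Cox7c and Cox5b fell over both genotypes and none rose, a share of 22.2% beside the 28.7% of all genes called. Cox5b, a zinc-binding matrix-side subunit, fell by 0.205 in wild type (adjusted p = 0.0329), with -0.07 in knockout (adjusted p = 0.451). The wild-type call was lost without any 1 array (adjusted p between 0.0537 and 0.142), and so was that over both genotypes, -0.1375 (adjusted p = 0.0251). In 2 of its further probe sets the change over both genotypes passed as well, at -0.215 (adjusted p = 0.00888) and -0.1425 (adjusted p = 0.0347). Cox5a, Cox6a1, Cox6b1, Cox6c, Cox7a2 and Cox8a did not pass by the probe set used, with changes over both genotypes between -0.1025 and 0.095. A further probe set of Cox6c rose by 0.315 (adjusted p = 0.00152) and one of Cox6b1 fell by 0.16 (adjusted p = 0.0172). Cox7a2l, a factor that joins complexes III and IV into supercomplexes, did not pass, and it was the only tested member whose 4 knockout arrays all lay below the 4 wild-type ones, from 10.59 to 10.70 against 10.71 to 10.76. Among all genes 0.799% showed that order.

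Complex V held 9 of the 17 members called over both genotypes, 5 upward and 4 downward, out of its 17 subunits. The falls were in the catalytic head and the rotor ring. Atp5a1, the alpha subunit of the F1 head, read 12.57 and 12.29 in normoxic wild type, 11.85 and 11.60 in hypoxic wild type, 12.56 and 12.33 in normoxic knockout, and 11.99 and 11.65 in hypoxic knockout. The hypoxic and normoxic arrays did not overlap. Atp5a1 fell by 0.705 ± 0.059 in wild-type cells (adjusted p = 6.1e-04) and in knockout by 0.625 ± 0.059 (adjusted p = 0.00158), and was called in all 8 fits that left out 1 array, in each genotype. A second probe set with a mean of 11.93 changed by -0.47 and -0.385 and passed, and another at 6.44 by 0.11 and -0.015 and did not.

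Atp5b, the catalytic beta subunit, read 12.92 and 13.22 in normoxic wild type, 12.67 and 12.74 in hypoxic wild type, 13.02 and 13.09 in normoxic knockout, and 12.79 and 12.83 in hypoxic knockout. No hypoxic array reached a normoxic one. It fell by 0.365 ± 0.073 in wild type (adjusted p = 0.0146), with -0.245 in knockout (adjusted p = 0.0707). The wild-type call was lost without either hypoxic array or the second set's normoxic array of that genotype, with values from -0.398 to -0.245 (adjusted p between 0.0721 and 0.0818). Atp5c1 and Atp5d, of the central stalk, did not pass, with changes over both genotypes of -0.015 and -0.06. A faint further probe set of Atp5c1, with a mean of 5.39, fell by 0.8625 (adjusted p = 0.0132). Atp5e, the smallest subunit of the stalk, rose over both genotypes by 0.24 (adjusted p = 0.0296), a call lost without any first-set array or the second set's normoxic wild-type array (0.165 to 0.255, adjusted p between 0.0691 and 0.118).

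Atp5g1, Atp5g2 and Atp5g3 encode the same mature ring protein, subunit c, behind different import sequences. Atp5g1 read 11.38 and 11.49 in normoxic wild type, 11.08 and 11.00 in hypoxic wild type, 11.31 and 11.38 in normoxic knockout, and 11.16 and 11.09 in hypoxic knockout. Atp5g1 and Atp5g2 lay lower in all hypoxic arrays and Atp5g3 higher. Atp5g1 fell by 0.395 ± 0.073 in wild type (adjusted p = 0.011), with -0.22 in knockout (adjusted p = 0.0971). The wild-type call was lost without either second-set wild-type array (-0.327 and -0.337, adjusted p = 0.0824 and 0.069). With all probe sets averaged, a second one at a mean of 3.36 included, the wild-type change was 0.05 (adjusted p = 0.78). Atp5g2 fell over both genotypes by 0.17 (adjusted p = 0.0238), a call lost without any 1 array (adjusted p between 0.0543 and 0.111). Atp5g3 changed by 0.1125 over both genotypes and did not pass (adjusted p = 0.0668).

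The differences between isoforms were compared within arrays in 10 pairs. For Atp5g1 minus Atp5g3 the difference fell by 0.42 in hypoxia, in 4 of 4 pairs of arrays. It fell by 0.2825 for Atp5g2 minus Atp5g3 and by 0.14 for Cox7a2l minus Cox7a2, and it rose by 1.175 for Cox7a1 minus Cox7a2, each in 4 of 4 pairs. Each of the 4 reached the smallest p that an exact permutation of 4 against 4 arrays allows (two-sided p = 0.0286). With only 4 of the 10 pairs at that smallest p, none could pass after adjustment (adjusted p = 0.0714), so not passing says little. The permutation also ignored the set and genotype of the arrays, here and for Cox4i2 minus Cox4i1. The other 6 pairs had an exact permutation p between 0.0571 and 0.8, with changes from -0.365 for Cox6b2 minus Cox6b1 to 0.1375 for Cox8b minus Cox8a.

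Called members of the peripheral stalk and of the membrane accessory subunits of complex V were few and higher in hypoxia. Over both genotypes, where 13.6% of all genes rose, 2 of 4 stalk subunits did, Atp5pb by 0.1725 (adjusted p = 0.0287) and Atp5j by 0.16 (adjusted p = 0.022), while Atp5h and Atp5o did not pass at 0.1125 and 0.0475. A further probe set of Atp5o rose by 0.3675 (adjusted p = 0.00329). One of Atp5pb, with a mean of 11.98, changed by 0.0525 and did not pass (adjusted p = 0.488). Of 5 accessory subunits, several of which support dimers of the synthase, Atp5j2 rose by 0.1675 (adjusted p = 0.0289) and Atp5k by 0.1325 (adjusted p = 0.0499). Atp5l, Atp5md and Atp5mpl did not pass, with 0.0725 to 0.1425. The calls of Atp5pb, Atp5j and Atp5j2 were each lost in 6 of the 8 fits that each left out 1 array (Atp5pb kept its call without the second set's wild-type arrays, the others without the first set's hypoxic knockout or the second set's hypoxic wild-type array), with adjusted p between 0.0576 and 0.12 and values from 0.123 to 0.183, and that of Atp5k in all 8.

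Atp5k read 11.67 and 11.63 in normoxic wild type, 11.66 and 11.69 in hypoxic wild type, 11.49 and 11.52 in normoxic knockout, and 11.72 and 11.77 in hypoxic knockout. The normoxic knockout arrays were the lowest pair. It rose in knockout by 0.24 ± 0.061 (adjusted p = 0.0432) and read 0.025 in wild type (adjusted p = 0.829). The interaction term of this probe set, 0.215, did not pass, and its knockout call was lost without any 1 array (adjusted p between 0.0558 and 0.25). A further Atp5k probe set, with a mean of 11.08, rose in wild type by 0.325 (adjusted p = 0.013), with 0.235 in knockout (adjusted p = 0.0515). Another, with a mean of 11.62, changed by 0.05 and 0.135 and did not pass. A rise limited to knockout was thus not seen by every probe set.

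7 of the tested members had all 4 hypoxic arrays below all 4 normoxic ones, which holds for 8.2% of all genes, and 7 had them all above, which holds for 7.09%. The first were Atp5a1, Atp5b, Atp5g1, Atp5g2, Cox6b1, Cox7c and Sdha, and the second Atp5g3, Atp5j, Atp5j2, Atp5md, Atp5pb, Cox7a1 and Uqcr11. Complex V supplied 4 of the first and 5 of the second. In 37 of 45 members the wild-type and knockout changes had the same sign. Only Cox7a1 in both genotypes and Cox7c in knockout reached a log2 change of 1.

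Other probe sets of the members were read as a check on the choice of 1 per gene. Of 91 member probe sets, 45 were further ones for 29 genes, and 37 of these passed the same filter. Their change over both genotypes had the sign of the used probe set in 29 cases and the opposite sign in 8. Of the further probe sets 12 passed, 5 beside a used one that passed in the same direction and 7 where the used one did not. None passed in the opposite direction, and 8 further ones did not pass beside a used one that did. The share of all 24716 tested probe sets that passed is not given here, while 28.7% of all genes passed in this comparison. The count of 12 is therefore no result about the members.

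**Figure D4:**
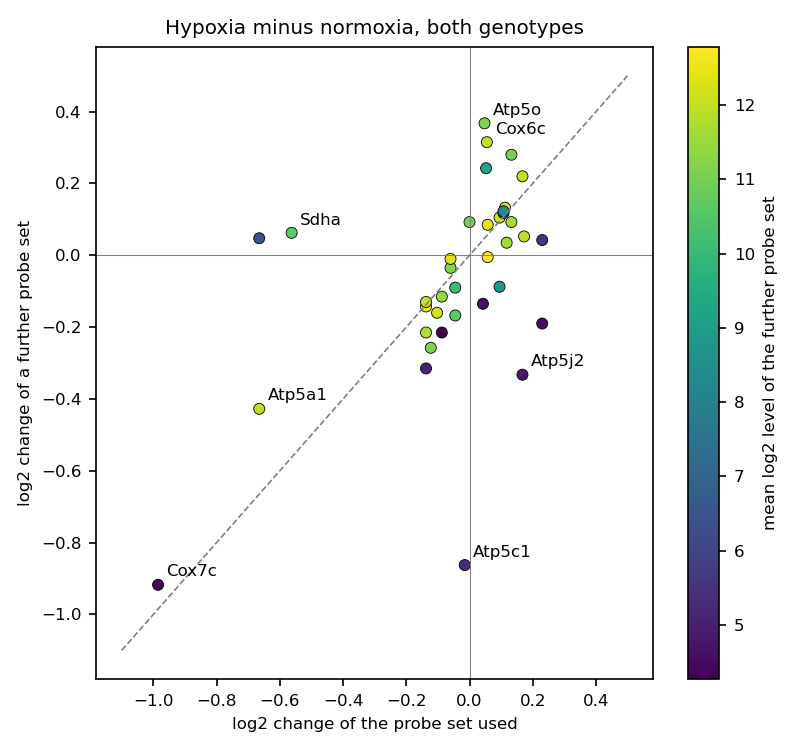
Log2 change over both genotypes of each tested further probe set of a member (vertical axis) against that of the probe set used for the same gene (horizontal axis); colour gives the mean log2 level of the further probe set and the dashed line marks equal changes. Cox7c and the brighter further probe set of Atp5a1 lie near the lower left, whereas Sdha has -0.5625 in the used and 0.0625 in the further probe set.

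No member passed between knockout and wild type. In normoxia 0 of 45 passed and 0.0366% of all genes did, in hypoxia 0 of 45 and 0.0293%, and over both oxygen conditions 0 of 45 and 0.256%. In the limma fit an unadjusted p under 0.05 was reached by 1, 3 and 1 of the 45 members in these comparisons and by 914, 753 and 1396 of all 13647 genes. In the interaction it was reached by 2 members and 329 genes, and 0% of all genes passed after adjustment. The largest difference was that of Cox6b2 in hypoxia, higher in knockout by 0.78 ± 0.202 (adjusted p = 0.667), where the sets gave 1.15 and 0.41. Without the first set's wild-type arrays it was 0.3975. Sdha was 0.195 higher in hypoxic knockout than in hypoxic wild type (95% interval 0.004 to 0.386, adjusted p = 0.881). For Cox4i2 the difference was -0.03 in normoxia (-0.35 to 0.29) and 0.01 in hypoxia (-0.31 to 0.33). Of the 45 tested members, 43 in normoxia and 41 in hypoxia had a 95% interval within 0.5 of 0.

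Neighbouring gene groups were described by the same counts. Of 43 tested genes whose symbols start with Nduf, taken to stand for complex I, 4 rose and 6 fell over both genotypes (23.3%). Of 76 mitochondrial ribosomal protein genes 8 rose and 10 fell (23.7%). Both shares stand beside 28.7% of all genes. The Nduf genes included Ndufa4 and, among those that rose, Ndufa4l2. Ndufa4l2, a paralogue of the complex IV subunit Ndufa4, rose by 1.995 in wild-type cells (adjusted p = 0.00287) and 1.26 in knockout (adjusted p = 0.0204). Cycs, cytochrome c, rose in wild type by 0.215 (adjusted p = 0.0365), with 0.12 in knockout. Higd1a, a small inner membrane protein that binds complex IV, rose by 1.69 and 1.45, and Mxi1, an antagonist of Myc, by 1.47 and 1.26. In the list of 19 tested regulators of respiration, 7 rose and none fell in each genotype (36.8%, where 7.54% of all genes rose in wild type and 4.98% in knockout), and Bnip3 and Pdk1, known HIF targets, led it. This list was chosen with earlier results of these data known, so its share is no result about such regulators. Over both genotypes 7 rose and 3 fell, the 3 being Epas1 (-0.905), Gabpb1 (-0.2625) and Nrf1 (-0.3425).

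Assembly factors moved in both directions. Of 19 tested complex IV assembly factors, 1 rose and 3 fell in wild type (21.1%, beside 16.4% of all genes), 1 rose and 2 fell in knockout (15.8% beside 10.1%), and 3 rose and 5 fell over both genotypes (42.1% beside 28.7%). Coa6, which works in copper delivery, rose by 0.585 (adjusted p = 0.00658) in wild type and 0.475 (adjusted p = 0.02) in knockout. Cox18, which inserts the Cox2 protein into the membrane, fell by 0.79 (adjusted p = 0.0104) and 0.615 (adjusted p = 0.0346), and Coa5 by 0.44 and 0.305. Coa3, which stabilizes newly made Cox1 protein, fell in wild type by 0.425 (adjusted p = 0.0177), with -0.235 in knockout (adjusted p = 0.14). Of 5 complex III factors, Ttc19 fell by 0.76 and 0.57 and Uqcc2 rose by 0.36 and 0.37 in wild type and knockout. None of the 4 complex II or 3 ATP synthase factors passed in either genotype alone, while Sdhaf1 fell by 0.2725 and Tmem70 by 0.29 over both genotypes (adjusted p = 0.0385 and 0.02).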

How the data were processed

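The deposited table holds log2 expression values, 1 per probe set and array, made by the authors with RMA per the submitters' processing notes, from 5 ug of total RNA per the labels' protocols. The sources used here do not state whether 1 RMA run covered all arrays. Values lay between 2.09 and 14.71 and were used as deposited. Of 45037 probe sets other than controls, 34945 with exactly 1 gene symbol were used, with symbols updated through a RefSeq table of GRCm38.p6. A gene took its probe set of highest mean. The filter kept genes whose mean reached the 25th percentile (4.17), which left 13647 of 18193 to be tested.

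R 4.3.3 with limma 3.58.1 fitted a mean per group plus the set to all 8 arrays, with eBayes and a mean-variance trend (3 residual degrees of freedom, to which moderation added 5.22). P-values are two-sided with Benjamini-Hochberg adjustment over all tested genes at 0.05; "adjusted p" refers to this limma fit unless another test is named. The labels mark 1 array of each group as second. Deviations of same-set arrays from their group means correlated at 0.71 to 0.85 over the 6 pairs of groups, so the sets pair the arrays. Isoform pairs were compared by exact permutation (scipy 1.17.1). The number of arrays limits the precision. Scripts were tested on simulated data.

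Arrays were grouped by their titles. Values in every array are given for Cox4i2, Cox4i1, Sdha, Atp5a1, the up to 6 called members of smallest adjusted p per hypoxia contrast and the restricted isoforms of complex IV that were tested and paired. Genes outside the members come from fixed lists, up to 4 per list. Members, lists and roles were chosen with earlier results of these data known. Alternatives covered the set term, the filter, the probe set rule, quantile normalization, the variance trend, the arrays of 1 genotype and each array left out. Leaving out both wild-type arrays of the first set was added after the data were seen.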

Additional observations from a re-analysis of the deposited data

How the results depend on the processing

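The changes of Sdha, Atp5a1, Cox7c and Cox7a1 with hypoxia kept their direction in each genotype alone and in both combined under all alternatives run. None of these took the further Sdha probe set of high signal alone. That probe set changed the other way, by 0.085 in wild type and 0.04 in knockout, and did not pass. The alternative with the probe set of highest variance read Sdha by a faint one. Its mean was 4.10, and it changed by -0.155 in wild type and -0.48 in knockout. Counts of called members depended more on the processing. The fit without the replicate block, that is without the set as a term, called 0, 0 and 1 members in wild type, knockout and both genotypes combined (the 1 being Cox7c), against 10, 5 and 17 with it; without it limma gave 6, 6 and 10 at an unadjusted p under 0.05; the cause was not tested. The set as a random block left 6 in wild type. Without a variance trend 6, 3 and 7 were called, and with the mean of all probe sets 3 in knockout. Only the 4 arrays of 1 genotype gave 3 in wild type and 0 in knockout (17 at an unadjusted p under 0.05), from fewer samples. Without both wild-type arrays of the first set, 0, 0 and 6 were called (9, 17 and 20 unadjusted). Leaving out 1 array gave 4 to 8, 1 to 5 and 7 to 13 calls. The share of all genes called is not given here for these alternatives, so the counts do not set the members apart from other genes. No alternative called a member between genotypes or in the interaction. The paired sign flips of the isoform differences, also within the replicate block, reach no p below 0.125.

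Some values reversed. With the mean of all probe sets, Atp5g1 in wild type read 0.05, Uqcrq over both genotypes -0.0413 and the Atp5g1 minus Atp5g2 difference 0.0892. With the probe set of highest variance Atp5j2 read -0.3325 over both genotypes. These settings bring in probe sets of low signal. For Cox6a2 minus Cox6a1, leaving out 1 array gave -0.15 to 0.0867, and for Cox8b minus Cox8a -0.0233 to 0.2533, with 0.06 for the first pair without the first set's hypoxic knockout array. After quantile normalization the median change of all genes lay between -0.0262 and 0.0344 in the 7 contrasts, beside -0.02 to 0.025 as deposited.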

Other observations

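Sets differed in the level of several members. Over the 8 arrays, the second set minus the first was 0.52 for Cox7a1, 0.48 for Uqcrq and -0.5025 for Cox6b2 on the log2 scale, and the median absolute difference was 0.115 for members and 0.215 for all tested genes. Macrophage and leukocyte markers also differed between arrays. The summed log2 level of the 7 listed was 10.06 to 11.56 in normoxic wild type, 9.76 to 11.07 in hypoxic wild type, 9.04 to 9.81 in normoxic knockout and 8.75 to 9.71 in hypoxic knockout, and 1 of the 7 passed with hypoxia in wild type (14.3%, beside 16.4% of all genes), Lyz2, which fell by 0.495 (adjusted p = 0.0146). Adgre1 went from 6.34 to 6.81 in the wild-type pair of the first set and from 4.41 to 4.80 in that of the second, and did not pass (0.43, adjusted p = 0.557). Between genotypes, over both oxygen conditions, 4 of the 7 were lower in knockout, beside 0.256% of all genes called. The part of these cells in the levels of the respiratory subunits was not tested. The 5 epithelial markers summed to 8.11 to 8.81 and the 5 endothelial ones to 6.80 to 7.83 over all groups, with Cdh1, Pecam1, Cdh5 and Emcn below the filter. The 2 erythroid markers on the array were below it too.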
